A study of Homo sapiens with 2 samples.

Results

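The mRNAs of the actin, myosin and tubulin cytoskeleton were followed in an RNA immunoprecipitation (RIP) of IMP1 from T47D cells, a cell line of luminal breast cancer. The members were chosen by symbol alone from the table of all genes: the tubulins, γ-actin (ACTG1), the α-actinins, cofilins, profilins, actin-related proteins and Arp2/3 subunits, the myosin light chains, the nonmuscle class II heavy chains and the unconventional myosins, without symbols that end in P and a number. This gave 79 of 18781 genes, or 78 symbols, since TUBB3 is listed on 2 rows. In RIP, beads coated with an antibody are incubated with cell lysate, and the RNA that stays on the washed beads is sequenced. Both libraries came from wild-type T47D cells without further treatment, 1 from protein A beads carrying anti-IMP1 antibody and 1 from beads carrying normal IgG, which leaves every difference without replicates and without a p-value. IMP1, the product of IGF2BP1, is an RNA-binding protein, and the study used the assay to find its RNA partners.

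Actin filaments, built from β- and γ-actin, are nucleated as branches by the Arp2/3 complex, disassembled by cofilin, fed with monomer by profilin and pulled on by myosins. Microtubules are polymers of α- and β-tubulin, and γ-tubulin seeds their growth. In moving cells both systems shape the protrusions of the leading edge, where IMP1 is known to carry the mRNA of β-actin.

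The values are FPKM, fragments normalised to the length of the transcript and the size of the library, so that levels of different genes can be compared within a library per length. Each gene was compared between the libraries by its log2 ratio, the log2 of (IMP1 FPKM + 0.1)/(IgG FPKM + 0.1), which understates the difference of low genes, and a gene past 2-fold was counted as higher or lower. The depth of both libraries is unknown. The sum of FPKM over all genes was 353885 with IMP1 and 1298363 with IgG, of which mitochondrially encoded genes took 48.4% and 59.9%, and 17233 and 11283 genes were above 0. The scale between the libraries is therefore uncertain: setting the median ratio of the 6909 genes that reached 1 FPKM in each library to 1 adds 0.79 to the log2 ratio, and equalising the sums without mitochondrial genes adds 1.51, before the pseudocount. Ratios between genes within a library do not move with this scale, and they are given first where genes of a family are compared.

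The cytoskeleton members summed to 2087 FPKM with IMP1 and to 1896 FPKM with IgG, which was 1.14% and 0.364% of the FPKM outside mitochondrial genes. On the deposited scale 13 of the 79 members were higher with IMP1 by 2-fold or more, or 16.5%, beside 39.9% of all genes, and 30 were lower by as much, or 38%, beside 29.9% of all genes. Many genes of the whole table are listed at 0 with IgG. Among the 44 members that reached 1 FPKM in each library, 7 were higher (15.9%, beside 11.5% of all such genes) and 17 were lower (38.6%, beside 44.0%). Their median log2 ratio was -0.42, and that of all genes at this level was -0.78. The split turned with the scale, from 13 higher and 30 lower as deposited to 25 and 20 relative to the median gene, where 49.3% of all genes were higher and 21.3% lower, and to 37 and 14 with equal sums, where 59.2% of all genes were higher and 15.1% lower. Over the whole table, the share of members that were higher was below that of all genes on each scale, at 16.5%, 31.6% and 46.8%. Among genes that reached 1 FPKM in each library it was above, at 15.9% beside 11.5% as deposited. All 13 higher members stayed higher on the 3 scales, since each rescaling raises the IMP1 values, and 14 members were lower on all 3 scales (17.7%, beside 15.1% of all genes).

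The members kept a similar order of abundance in both precipitates. Spearman's rank correlation of the levels was 0.77 over the 61 members above 0 in both libraries and 0.63 over 10047 such genes, a description in which genes share a library and are not replicates. ACTG1, MYL6, TUBA1B and CFL1 led the IMP1 library with 395, 314, 245 and 229 FPKM, and MYL6, ACTG1, CFL1 and ARPC3 led the IgG library with 303, 252, 175 and 143 FPKM. TUBA1B moved most among these leaders in its rank over all genes, from 658 with IgG to 105 with IMP1. The 10 members highest with IMP1 made up 83.5% of the members' sum there, and the same genes made up 63.3% with IgG. At the other end, 21 members were under 1 FPKM in both libraries, and the read-through gene ARPC4-TTLL3 was listed at 0 in both.

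**Figure D1:**
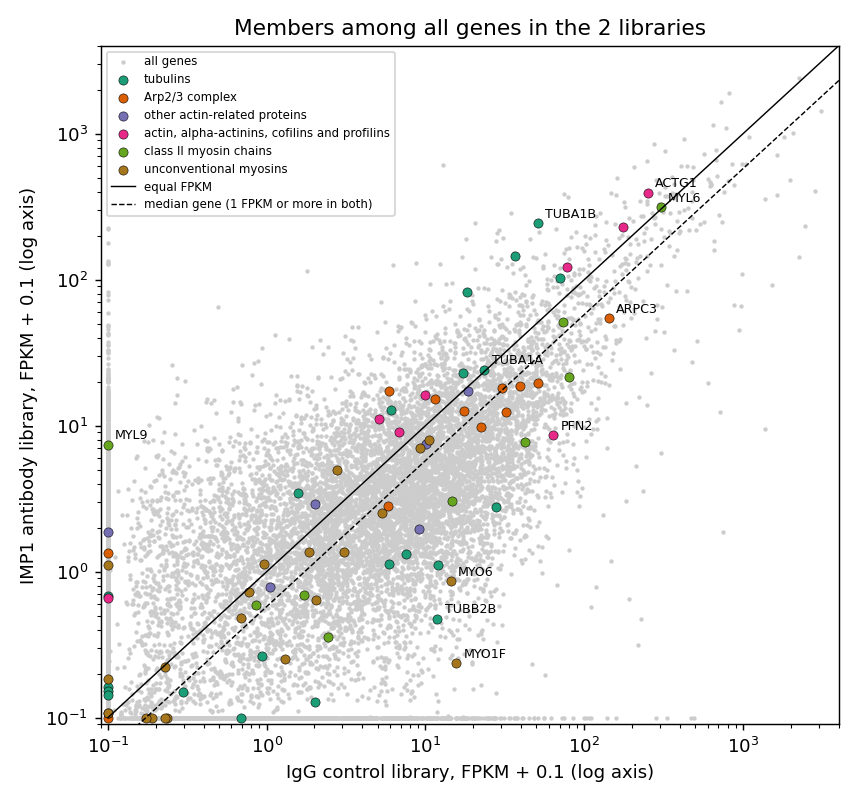
FPKM + 0.1 of each member in the IgG library (horizontal, log axis) and in the IMP1 library (vertical, log axis), 1 point per gene, coloured by class, with all genes in grey; the solid line marks equal values and the dashed line the median gene. TUBA1B and ACTG1 lie above the line of equal values, MYO1F and MYO6 lie far below it, and MYL9, listed at 0 with IgG, lies on the left edge.

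Tubulins took a larger share of the cytoskeleton mRNA in the IMP1 precipitate. The 21 tubulin rows made up 31.0% of the members' FPKM with IMP1 and 15.4% with IgG, and 6 were higher and 8 lower, with a median log2 ratio of 0.43 that was 0.039 over protein-coding tubulins only and also over those with at least 0.5 FPKM in a library. Of the 12 rows that reached 1 FPKM in each library, 5 were higher and 4 lower, or 41.7% and 33.3%. The shares of all genes at this level were 11.5% and 44.0%. The difference in the tubulin share lay in a few abundant isotypes. The summed α-tubulins were 417 FPKM with IMP1 and 119 with IgG, and the summed β-tubulins 200 and 114 FPKM.

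Of the 3 abundant α-tubulins, TUBA1B was 245 FPKM with IMP1 and 51.2 with IgG, a log2 ratio of 2.26. TUBA1C was 146 and 36.3 FPKM, a log2 ratio of 2.01. TUBA1A, the isotype best known from developing neurons, was 24.1 and 23.4 FPKM, a log2 ratio of 0.04. Within the IMP1 library TUBA1B was thus 10.2 times TUBA1A, and within the IgG library 2.18 times, while the TUBA1B to TUBA1C ratio was 1.67 and 1.41. As a share of all α-tubulin FPKM, TUBA1A was 5.78% with IMP1 and 19.6% with IgG, and TUBA4A, whose product has no C-terminal tyrosine encoded in its gene, was 0.294% and 6.26%. TUBA4A stood at 1.23 and 7.48 FPKM, a log2 ratio of -2.52, and was lower on all 3 scales. The coding sequences of these paralogs are similar, so fragments could be assigned to the wrong copy. Summed over TUBA1A, TUBA1B and TUBA1C the values were 415 and 111 FPKM, a log2 ratio of 1.90, so the higher level of the trio does not turn on how fragments were split among them, whereas the low share of TUBA1A could.

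Among the β-tubulins, TUBB, the main isotype of dividing cells, was 102 FPKM with IMP1 and 69.9 with IgG, a log2 ratio of 0.55. TUBB4B was 82.6 and 18.2 FPKM, a log2 ratio of 2.18. TUBB4B was therefore 0.806 of TUBB with IMP1 and 0.260 of TUBB with IgG. TUBB2A and TUBB2B, a neighbouring pair of paralogs, went the other way. TUBB2A was 1.02 and 5.77 FPKM (log2 ratio -2.39), and TUBB2B was 0.374 and 11.8 FPKM (log2 ratio -4.65). TUBB2B made up 0.187% of β-tubulin FPKM with IMP1 and 10.3% with IgG, and TUBB4B 41.3% and 15.9%. The sum of TUBB, TUBB2A, TUBB2B and TUBB4B was 186 and 106 FPKM, a log2 ratio of 0.82, under the 2-fold line that TUBB4B alone passed. TUBB6 was 12.8 FPKM with IMP1 and 6.0 with IgG, and TUBB4A was 0.0283 and 1.93 FPKM.

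TUBB3, the neuronal β-tubulin, showed how the row structure can set a ratio. ENSG00000198211 was listed at 0 with IMP1 and at 0.587 FPKM with IgG, and ENSG00000258947 at 0.577 FPKM with IMP1 and at 0 with IgG. Each row alone counts as a difference past 2-fold, in opposite directions, while their sums were 0.577 and 0.587 FPKM. Both rows carry the same hg19 span, chr16:89940000-90005169.

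Tubulins outside the polymer lattice differed among themselves. TUBG1, the main γ-tubulin, was 23.0 FPKM with IMP1 and 17.0 with IgG, and its paralog TUBG2 was 3.37 and 1.48 FPKM. The centriolar tubulins were low with IMP1: TUBD1 (δ) was 2.66 and 27.6 FPKM, a log2 ratio of -3.33, and TUBE1 (ε) was 1.0 and 12 FPKM, a log2 ratio of -3.45. Both were lower on all 3 scales, whereas neither γ-tubulin was lower on any.

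**Figure D2:**
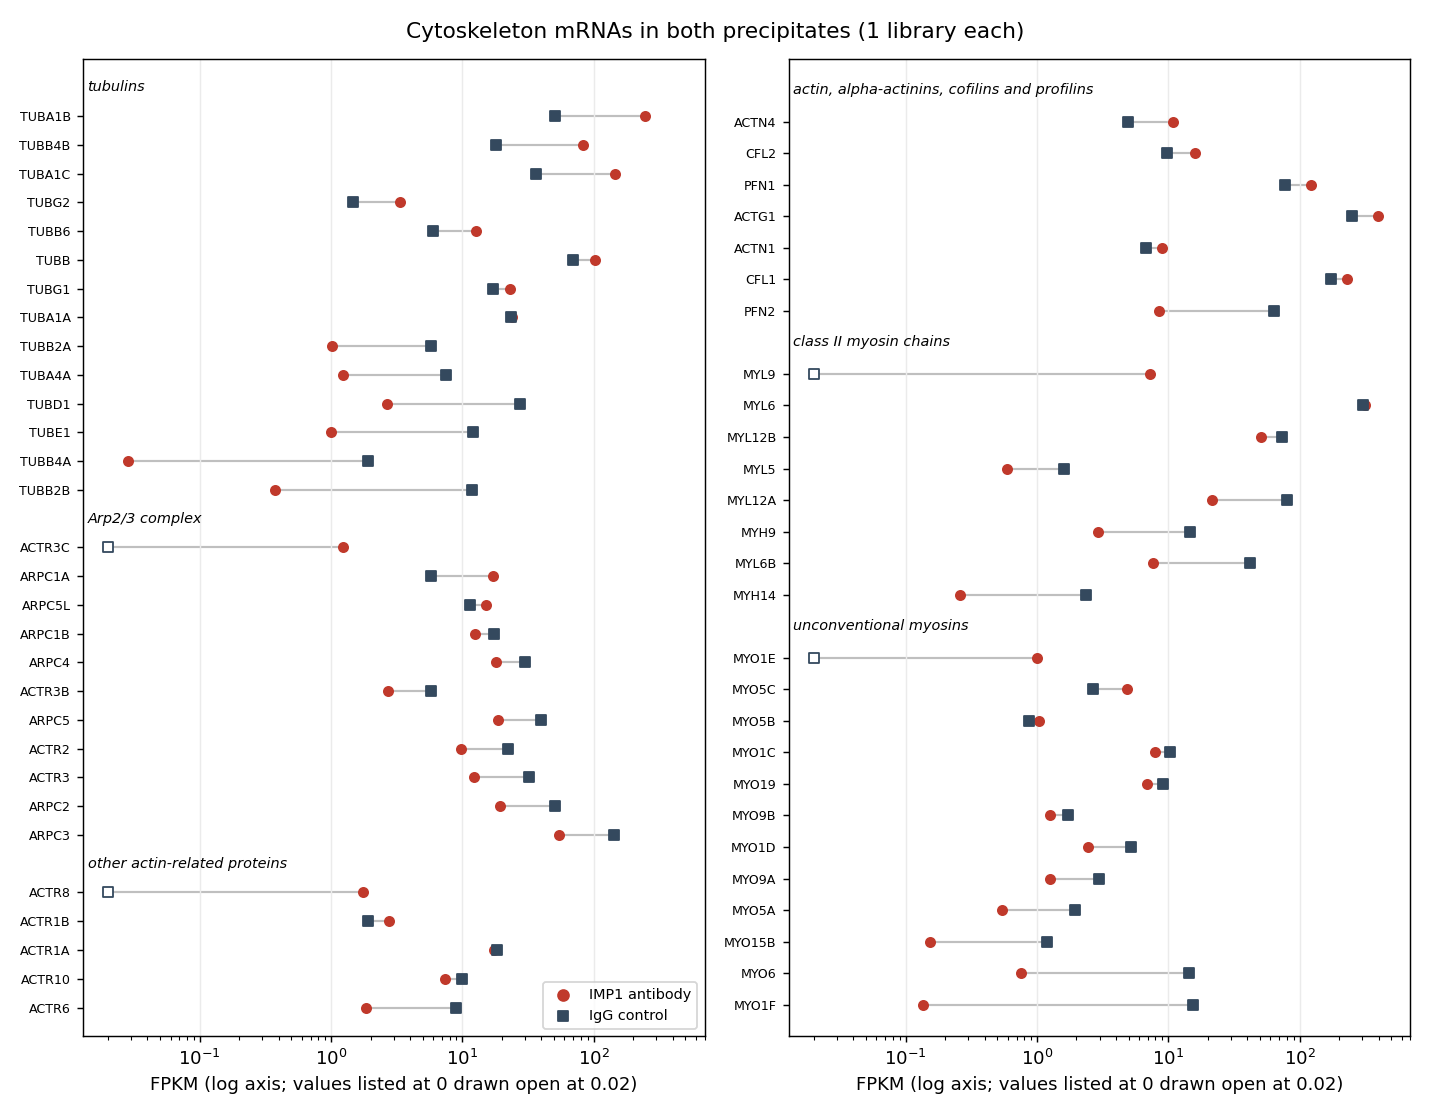
FPKM (log axis) with IMP1 antibody (circles) and IgG (squares) for members that reached 1 FPKM in a library, 1 library each, sorted within each class by log2 ratio. Open squares at 0.02 mark genes listed at 0, such as MYL9, and the 5 Arp2/3 genes ACTR2, ACTR3, ARPC2, ARPC3 and ARPC5 lie side by side with IgG above IMP1.

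The windows around the start of TUBA1B, TUBA1C and TUBB4B, the tubulins above 0 in both libraries with the highest log2 ratios, and of TUBA1A are printed to show these isotypes by sequence as well as by value. They come from RefSeq on GRCh38.p14 and run from 250 bases before to 50 after the annotated start, 5′ to 3′ on the gene's strand, at chr12:49189031-49189330 (TUBA1A, minus strand), chr12:49131346-49131645 (TUBA1B, minus), chr12:49227676-49227975 (TUBA1C, plus) and chr9:137241037-137241336 (TUBB4B, plus). Capitals mark CCAAT on either strand, the box bound by NF-Y, which reads as ATTGG on the opposite strand.
TUBA1A: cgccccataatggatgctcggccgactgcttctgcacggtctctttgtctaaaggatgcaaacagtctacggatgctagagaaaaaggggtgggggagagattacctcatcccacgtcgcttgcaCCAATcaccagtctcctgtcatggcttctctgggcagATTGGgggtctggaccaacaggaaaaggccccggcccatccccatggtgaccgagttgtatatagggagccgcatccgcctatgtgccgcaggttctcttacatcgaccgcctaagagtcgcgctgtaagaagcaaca
TUBA1B: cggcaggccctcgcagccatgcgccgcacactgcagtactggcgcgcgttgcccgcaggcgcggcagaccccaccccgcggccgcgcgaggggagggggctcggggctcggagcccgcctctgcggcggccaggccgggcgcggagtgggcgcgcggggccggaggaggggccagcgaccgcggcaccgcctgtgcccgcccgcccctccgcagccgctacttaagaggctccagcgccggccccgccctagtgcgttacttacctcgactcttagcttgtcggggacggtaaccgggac
TUBA1C: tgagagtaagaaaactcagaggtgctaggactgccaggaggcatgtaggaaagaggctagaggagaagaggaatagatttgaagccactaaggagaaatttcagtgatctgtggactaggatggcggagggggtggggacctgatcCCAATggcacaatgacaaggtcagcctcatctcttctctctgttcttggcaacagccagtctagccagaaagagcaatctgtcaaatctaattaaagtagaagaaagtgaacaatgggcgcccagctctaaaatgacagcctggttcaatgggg
TUBB4B: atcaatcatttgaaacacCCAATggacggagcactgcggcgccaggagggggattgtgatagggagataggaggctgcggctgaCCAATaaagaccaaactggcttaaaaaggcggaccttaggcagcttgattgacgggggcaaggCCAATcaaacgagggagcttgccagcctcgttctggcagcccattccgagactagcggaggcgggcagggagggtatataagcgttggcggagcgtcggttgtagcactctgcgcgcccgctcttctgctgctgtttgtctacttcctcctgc
CCAAT occurred 2 times in the window of TUBA1A, 0 times in that of TUBA1B, 1 time in that of TUBA1C and 3 times in that of TUBB4B. In the windows of TUBB6 and TUBG2, which were also past 2-fold higher, and of TUBB it occurred 0, 1 and 1 times. It was found in 9 of 18 tubulin windows, in 28 of the 69 members with a window (40.6%) and in 9747 of 27305 windows of all genes (35.7%). RIP measures RNA on beads and not promoter activity, and a match is a description of these letters only.

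In the actin group ACTG1, CFL1, CFL2 and PFN1 were within 2-fold between the libraries on the deposited scale and past 2-fold higher with IMP1 on both other scales, whereas PFN2 was lower on all 3. ACTG1, cytoplasmic γ-actin, was 395 FPKM with IMP1 and 252 with IgG, a log2 ratio of 0.65, which was 1.44 relative to the median gene and 2.16 with equal sums. ACTB, cytoplasmic β-actin, is not among the members and was 716 and 1634 FPKM, a log2 ratio of -1.19 as deposited, -0.40 relative to the median gene and 0.32 with equal sums. The ACTG1 to ACTB ratio was 0.552 with IMP1 and 0.154 with IgG, a 3.58-fold difference in the balance of these actins that no scale between libraries can change. Their coding sequences are similar, so a part of the fragments could have been split between them either way. Their sum was 1111 and 1887 FPKM.

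CFL1, the nonmuscle cofilin that severs actin filaments, was 229 FPKM with IMP1 and 175 with IgG, and CFL2, its muscle-type paralog, was 16.0 and 9.84 FPKM. The CFL1 to CFL2 ratio was 14.3 and 17.7. PFN1, the ubiquitous profilin, was 122 and 77.4 FPKM, a log2 ratio of 0.65 like that of ACTG1, whose product it binds. PFN2, the profilin most abundant in brain, was 8.51 and 63.7 FPKM, a log2 ratio of -2.89, and was lower on all 3 scales. The profilins thus stood in a ratio of 14.3 to 1 with IMP1 and of 1.22 to 1 with IgG, an 11.8-fold difference, while the ratio of the cofilins differed by 0.808-fold. Of the α-actinins, which crosslink filaments, ACTN4 was 10.9 and 4.97 FPKM, ACTN1 was 8.94 and 6.73 FPKM, and the muscle isoform ACTN2 was 0.557 FPKM with IMP1 and listed at 0 with IgG.

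**Figure D3:**
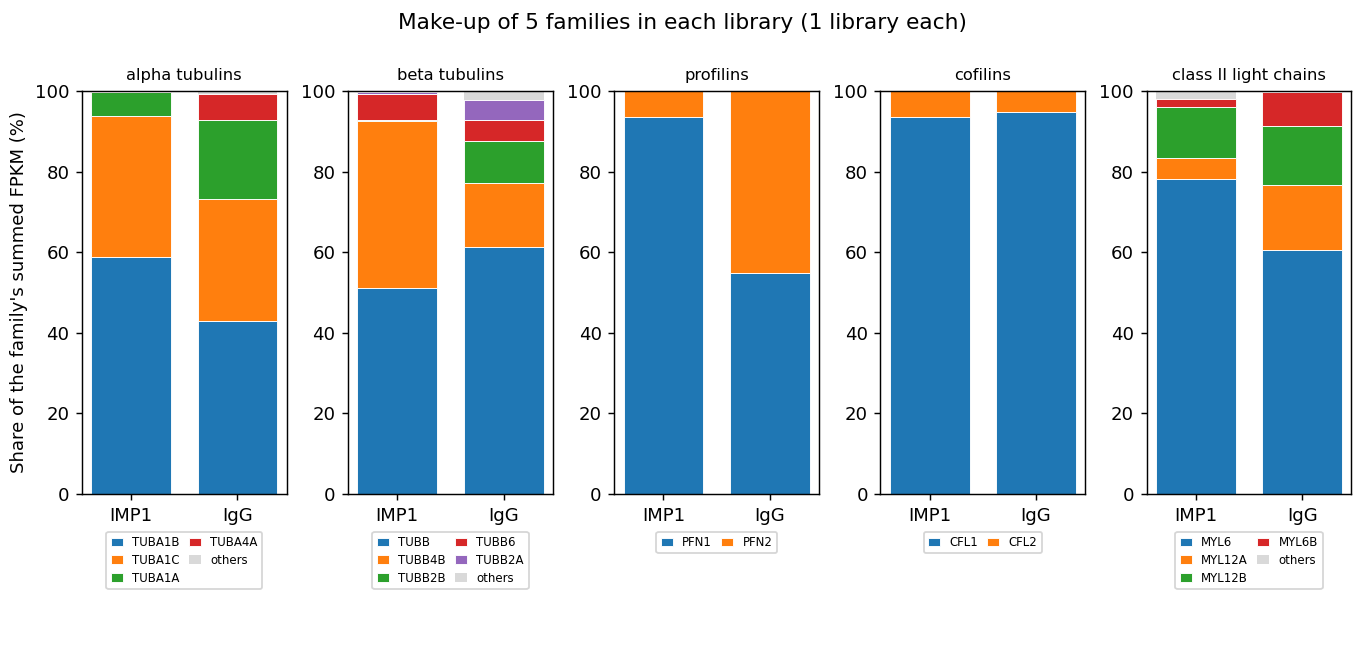
Share (%) of each paralog in the summed FPKM of its family, with IMP1 (left bar of each pair) and with IgG (right bar), 1 library each; paralogs under 2% in both libraries are pooled as others. TUBB4B takes 41.3% of β-tubulin with IMP1 and 15.9% with IgG, and PFN1 takes 93.5% and 54.9% of profilin.

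The Arp2/3 complex, which nucleates actin branches, held more lower than higher genes on the deposited scale, and the log2 ratios of its ARPC subunits ran from -1.39 to 1.56. Of 12 genes 2 were higher and 6 lower, with a median log2 ratio of -0.89 (-0.14 relative to the median gene and 0.43 with equal sums), and the class took 8.71% of the members' FPKM with IMP1 and 18.9% with IgG. Of the 10 genes that reached 1 FPKM in each library, 1 was higher and 6 lower, or 10% and 60%. The shares of all genes at this level were 11.5% and 44.0%. ACTR2 was 9.71 and 22.3 FPKM, and ACTR3 was 12.4 and 32.2 FPKM. ACTR2 and ACTR3 encode the actin-like subunits that start the daughter filament. ARPC2, which with ARPC4 holds the complex to the mother filament, was 19.5 and 50.9 FPKM. ARPC3 was the highest of the class with 54.4 and 143 FPKM, and ARPC5 was 18.6 and 39.5 FPKM. The log2 ratios of these 5 genes, grouped after their values were seen, lay between -1.39 and -1.08, or 2.12- to 2.63-fold lower. Relative to the median gene they lay between -0.60 and -0.29, inside the 2-fold line, and with equal sums their direction flipped to above 0.

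The ARPC1 subunit, encoded by a pair of paralogs, lay outside this range. ARPC1A was 17.2 FPKM with IMP1 and 5.79 with IgG, a log2 ratio of 1.56, and its paralog ARPC1B was 12.6 and 17.5 FPKM, a log2 ratio of -0.47. The ARPC1A to ARPC1B ratio was 1.37 with IMP1 and 0.331 with IgG, and their sum was 29.8 and 23.3 FPKM. Both carry the same hg19 span, chr7:98923521-99063954, which 8 rows of the table share. ARPC5L was 15.2 and 11.5 FPKM, so that ARPC5 was 1.22 times ARPC5L with IMP1 and 3.45 times with IgG. ACTR3B followed ACTR3, at 2.71 and 5.73 FPKM, and ACTR3C was 1.24 FPKM with IMP1 and listed at 0 with IgG. ARPC4, at 18.1 and 30.2 FPKM with a log2 ratio of -0.73, also lay outside it.

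Among the other actin-related proteins, the dynactin subunit ACTR1A was 17.3 FPKM with IMP1 and 18.5 with IgG, and its paralog ACTR1B 2.79 and 1.92 FPKM. ACTR10, which caps the dynactin filament, was 7.36 and 9.95 FPKM. These dynactin genes were all within 2-fold. ACTR6, a subunit of the SRCAP chromatin remodeller, was 1.85 and 9.0 FPKM, a log2 ratio of -2.22. ACTR8, a subunit of the INO80 remodeller, was 1.77 FPKM with IMP1 and listed at 0 with IgG, where 33.6% of the genes within 1.5-fold of its IMP1 level were also listed at 0.

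Class II myosin, the motor of contractile actin bundles, is a hexamer of heavy chains, essential light chains and regulatory light chains. Of its 9 genes 1 was higher and 5 lower, with a median log2 ratio of -1.31 that was -0.61 relative to the median gene and 0.059 with equal sums. Of the 5 genes that reached 1 FPKM in each library, 0 were higher and 3 lower, or 0% and 60%. The shares of all genes at this level were 11.5% and 44.0%. MYH9, the heavy chain of nonmuscle myosin IIA, was 2.93 FPKM with IMP1 and 14.6 with IgG, a log2 ratio of -2.28. MYH14, the heavy chain of IIC, was 0.258 and 2.35 FPKM, a log2 ratio of -2.77, and was lower on all 3 scales. The third heavy chain gene was under 1 FPKM in both libraries.

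The light chains were spread widely. MYL6, the nonmuscle essential light chain, was 314 FPKM with IMP1 and 303 with IgG, a log2 ratio of 0.05, and it stood 107 times above MYH9 with IMP1 and 20.7 times above it with IgG. MYL6B, its neighbour on the same hg19 span (chr12:56544580-56584068), was 7.62 and 42.2 FPKM, a log2 ratio of -2.45. MYL6 was 41.2 times MYL6B with IMP1 and 7.18 times with IgG, and the sum of both was 322 and 345 FPKM. Of the regulatory light chains, which carry the activating phosphorylation, MYL12A was 21.4 and 79.7 FPKM (log2 ratio -1.89) and MYL12B was 51.0 and 73.4 FPKM (log2 ratio -0.52). These adjacent, similar genes summed to 72.4 and 153 FPKM, a log2 ratio of -1.08 that turned to 0.43 with equal sums.

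MYL9, the regulatory light chain of smooth muscle, was 7.31 FPKM with IMP1 and listed at 0 with IgG. Of 2027 genes within 1.5-fold of its IMP1 level, 13.3% were also listed at 0 with IgG. Its hg19 span, chr20:34894258-35274619, is shared by 8 rows. Markers of smooth muscle and mesenchymal cells did not move with it as a list. Of 15 markers 3 were higher with IMP1 and 12 lower, or 20% and 80%, beside 39.9% and 29.9% of all genes. Their sum was 10.4 FPKM with IMP1 and 210 with IgG, and LUM, ZEB2, DES, COL1A2 and SPARC were listed at 0 with IMP1. The 3 higher markers, all listed at 0 with IgG, were TAGLN, CNN1 and SMTN, and SMTN reached 4.40 FPKM with IMP1. Smooth muscle genes went both ways, since ACTA2 (2.36 and 7.79 FPKM), DES (0 and 7.0 FPKM), MYH11 and CALD1 were lower with IMP1. The part of these markers in the value of MYL9 was not tested.

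Unconventional myosins, single motors that move membranes and organelles along actin, were mostly low in both libraries and more often lower than higher with IMP1 as deposited. Of 23 genes 1 was higher and 9 lower, with a median log2 ratio of -0.51 (0.15 relative to the median gene and 0.31 with equal sums), and the class made up 1.43% of the members' FPKM with IMP1 and 5.17% with IgG. Of the 6 genes that reached 1 FPKM in each library, 0 were higher and 2 lower, or 0% and 33.3%. The shares of all genes at this level were 11.5% and 44.0%. The median log2 ratio was -0.42 for these 6 and -0.78 for all genes at this level. Class I myosins link membranes to actin. MYO1F, known from leukocytes, was 0.137 and 15.6 FPKM, a log2 ratio of -6.05, lower on all 3 scales. Among 1884 genes within 1.5-fold of its IgG level, 82 (4.35%) had a log2 ratio at least as low. MYO1C, by contrast, was 7.91 and 10.4 FPKM. MYO1D was 2.44 and 5.24 FPKM, and MYO1E was 1.01 FPKM with IMP1 and listed at 0 with IgG.

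Of the blood cell markers 4 of 12 had a row in the table, and their sum was 0.804 FPKM with IMP1 and 10.6 with IgG. LCP1, the leukocyte plastin, was 0.149 and 5.75 FPKM and CD68, of macrophages, was 0.369 and 4.88 FPKM, while CD14 and CORO1A were listed at 0 with IgG. MYO1G, another myosin of blood cells, was listed at 0 with IMP1 and was 0.129 FPKM with IgG. The 4 markers thus split, with 2 lower like MYO1F and 2 higher, the latter under 1 FPKM in both libraries. The part of these markers in the value of MYO1F was not tested. Both precipitates are labelled T47D, and where the RNA of these markers came from was not tested.

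Outside class I, MYO6, the motor that walks toward the pointed end of actin, was 0.759 FPKM with IMP1 and 14.3 with IgG, a log2 ratio of -4.07, lower on all 3 scales. Class V myosins, which carry vesicles and melanosomes, stayed closer. MYO5C, the epithelial form, was 4.83 and 2.69 FPKM, MYO5B was 1.04 and 0.867 FPKM, and MYO5A was 0.544 and 1.95 FPKM, so that MYO5C was 8.89 times MYO5A with IMP1 and 1.38 times with IgG. MYO9A and MYO9B, which form class IX, were 1.26 and 2.99 FPKM and 1.26 and 1.74 FPKM. MYO19, the mitochondrial myosin, was 6.89 and 9.14 FPKM. The remaining unconventional myosins described here were at or under 1.2 FPKM in both libraries.

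**Figure D4:**
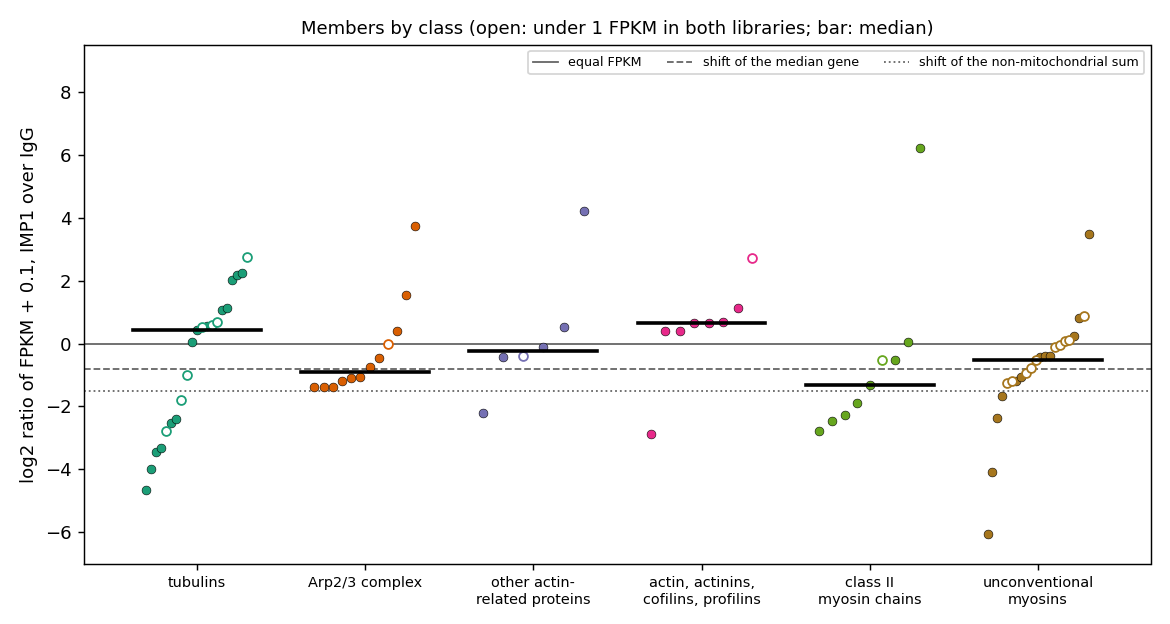
Log2 ratio of IMP1 over IgG (FPKM + 0.1, deposited scale) for each member, 1 point per gene, by class, with the class median as a bar, open points for members under 1 FPKM in both libraries, and horizontal lines at equal FPKM and at the shifts of both rescalings. The class medians run from -1.31 for class II myosin chains to 0.65 for the actin group.

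Luminal breast epithelium markers, which T47D cells express, were present, with 14 of 14 above 0 with IMP1 and 12 with IgG. Of the 14 markers 8 were higher with IMP1 and 0 lower, or 57.1% and 0%, beside 39.9% and 29.9% of all genes. Among the 12 that reached 1 FPKM in each library, 6 were higher and 0 lower, or 50% and 0%. All genes at this level gave 11.5% and 44.0%. The 14 markers summed to 1921 and 823 FPKM, and TFF1 and TFF3 were listed at 0 with IgG at 0.869 and 24.4 FPKM with IMP1. Of the skeletal and heart muscle markers 5 of 12 had a row, 0 higher and 3 lower, or 0% and 60%. Of the neuron markers 3 of 10 had a row, all under 1 FPKM with IMP1 and at 0 with IgG.

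Partners of the members on the actin side were more often lower than higher on the deposited scale, on which 39.9% of all genes were higher and 29.9% lower. With equal sums the medians of all 6 lists of partners with a median below 0 turned to above 0, on a scale where the median of all genes was 1.55, so the counts of lists are given as deposited. Of 37 actin filament binding and severing genes 5 were higher and 19 lower, with a median log2 ratio of -1.03 as deposited and 0.32 with equal sums. Of the 26 genes of this list that reached 1 FPKM in each library, 11.5% were higher and 46.2% lower. All genes at this level gave 11.5% and 44.0%, and the median was -0.78 for the list and for all of them. Thymosin β4 (TMSB4X), which sequesters actin monomer, was 481 FPKM with IMP1 and 1985 with IgG. The capping protein subunits CAPZA1 and CAPZA2 were 11.9 and 76.5 FPKM and 5.59 and 38 FPKM. LASP1 and CORO1B, filament-binding adaptors, stood on the other side at 14.9 and 1.28 FPKM and at 15.7 and 3.84 FPKM. Of 42 Arp2/3 activators, formins and their GTPases 11 were higher and 19 lower, with a median of -0.52 as deposited and 0.76 with equal sums. Here the GTPases RAC1 (102 and 218 FPKM) and CDC42 (37.8 and 98.8 FPKM), which act upstream of Arp2/3, were lower, whereas RHOC, a small GTPase that acts through formins, was 66.3 and 33.5 FPKM. Within the WAVE complex, NCKAP1 was 3.43 and 42.7 FPKM and CYFIP1 3.74 and 1.41 FPKM. Of 11 genes of myosin phosphorylation 2 were higher and 3 lower, with a median of -0.08 as deposited and 1.23 with equal sums, and PPP1R12A, the targeting subunit of myosin phosphatase, was 1.24 and 47.1 FPKM.

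On the microtubule side the lists differed, on the deposited scale where 39.9% of all genes were higher and 29.9% lower. Of 9 genes of the γ-tubulin ring complex, which nucleates microtubules, 5 were higher and 1 lower, with a median log2 ratio of 1.26. Only 5 of the 9 reached 1 FPKM in each library, of which 1 was higher and 1 lower. Their median was -0.03, beside -0.78 for all genes at this level. TUBGCP2 was 2.81 FPKM with IMP1 and 1.11 with IgG while MZT1 was 1.22 and 10.3 FPKM. Of 22 tubulin folding genes 2 were higher and 9 lower, with a median of -0.69 as deposited and 0.82 with equal sums. The cofactor TBCA, which binds β-tubulin, was 17.3 and 5.78 FPKM, and the chaperonin subunits CCT3 and CCT8 parted, at 22.3 and 9.02 FPKM and at 14.4 and 67.2 FPKM. Of 23 microtubule binding genes 9 were higher and 10 lower, with a median of -0.49 as deposited and 1.02 with equal sums. In this list 8 genes were listed at 0 with IgG. Among the 11 that reached 1 FPKM in each library, 0 were higher and 7 lower, or 0% and 63.6%. All genes at this level gave 11.5% and 44.0%, and the medians were -1.13 and -0.78. Stathmin (STMN1), which sequesters tubulin dimers, was 41.1 and 63.2 FPKM and the polymerase CKAP5 was 4.35 and 62.3 FPKM. Of 16 dynein and dynactin genes 1 was higher and 5 lower, with a median of -0.30 as deposited and 1.19 with equal sums, and the light chain DYNLL1 was 67.6 and 102 FPKM while the heavy chain DYNC1H1 was 3.03 and 12.9 FPKM.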

How the data were processed

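RNA co-precipitated with an IMP1 antibody or IgG from T47D lysates was sequenced in 1 library each. For every gene the authors deposited an FPKM value in both libraries. The submitters' processing notes name hg19, and the aligner, the FPKM software and the annotation are not given in the sources used here. The locus column counts starts from 0, so 1 was added; 48 of 79 members share their span with another row. Values at or below 1e-05, which the authors wrote for zero, were set to 0. The deposited columns of fold change, p-value and q-value and the files of selected genes hold the authors' comparisons and were not used.

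Log2 ratios of FPKM + 0.1 were computed, genes past 2-fold were counted, and paralogs were compared as ratios and shares of FPKM within a library. With 1 library per condition no test was run. The counting was tested on simulated data. The members and lists (actin filament binding, Arp2/3 activators and formins, myosin phosphorylation, γ-tubulin ring complex, tubulin folding, microtubule binding, dynein and dynactin, and cell type markers) were chosen with earlier results of these data known. Members with at least 1 FPKM in a library could be named, others only where listed at 0 in both or as examples of a gene restricted to a cell type; ACTB was named beside ACTG1, and of each list the 2 largest and the 2 smallest ratios among genes that reached 1 FPKM in each library, and the 2 genes highest with IMP1 and with IgG. Markers listed at 0, and MYH11 and CALD1, were named beyond this rule. By symbol, 77 of the 79 members were protein-coding in RefSeq (GRCh38.p14), and 69 had a promoter window. The values of 1 member are not reported here, and it stays in counts, sums and medians only. A planned comparison with protein length was not run, because no protein sequences were used here. The alternatives tried were pseudocounts of 1 and 0.01, filters at 1 FPKM in both or 0.5 FPKM in either library, both rescalings, protein-coding members only and a 4-fold threshold. Python 3.11.15, numpy 2.4.6, pandas 2.3.3 and matplotlib 3.10.9 were used.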

Additional observations from a re-analysis of the deposited data

How the results depend on the processing

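Counts and medians depended mainly on the scale between the libraries. Members at least 2-fold higher numbered 13 as reported, 8 with a pseudocount of 1, 7 among those that reached 1 FPKM in each library, 25 relative to the median gene and 37 with equal sums without mitochondrial genes. Members at least 2-fold lower numbered 30 as reported, 17 among those that reached 1 FPKM in each library, 14 with equal sums and 16 at 4-fold. With a pseudocount of 1, 10.1% of members were higher and 25.3% lower, beside 17.4% and 22.4% of all genes. At 4-fold, 11.4% of members were higher and 20.3% lower, beside 26.1% and 17.3% of all genes. Relative to the median gene and with equal sums, the median log2 ratio of all members went from -0.43 to 0.27 and 0.96, of class II myosin chains from -1.31 to -0.61 and 0.059, of the Arp2/3 complex from -0.89 to -0.14 and 0.43, of the other actin-related proteins from -0.25 to 0.52 and 1.24, of the actin group from 0.65 to 1.44 and 2.16, and of unconventional myosins from -0.51 to 0.15 and 0.31. The tubulin median went from 0.43 to 1.31 with equal sums, and that of class II myosin chains to -0.72 with a pseudocount of 1. With equal sums, 9 genes lower as deposited changed sign: ACTR2 (0.32), ACTR3 (0.13), ACTR3B (0.43), ARPC2 (0.13), ARPC3 (0.12), ARPC5 (0.43), MYL5 (0.059), MYO1D (0.40) and MYO9A (0.26), and so did the sum of MYL12A and MYL12B (0.43). These shifts follow from multiplying all IMP1 values. No paired analysis was possible because each condition has 1 library, and for the same reason no library could be left out. Depth is unknown, so a gene listed at 0 has no detection limit here.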
